A study of Homo sapiens with 12 samples.

Results

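The mitochondrial ribosome proteins encoded in the nucleus were followed across every library of the study. Genes were taken by symbol, as all MRPL and MRPS genes of the deposited tables that lie on chromosomes 1 to 22 or X, with the transcript model that holds most fragments standing for each gene. This gave 78 genes of 26472, 49 with MRPL symbols and 29 with MRPS symbols. The rule uses only symbols and positions, not measured differences, but it was set with earlier results of these data known. Of these, 77 passed the filter on low counts and were tested among 15689 genes. The exception, MRPS18B, had 0 to 2 fragments in any library at its locus on chromosome 6.

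Mitochondria hold their own ribosome, which makes the few respiratory chain proteins that mitochondrial DNA encodes. Its ribosomal RNA comes from mitochondrial DNA, but all of its proteins are translated in the cytosol from nuclear mRNAs and imported. Some of these proteins descend from bacterial ribosomal proteins, and others were added during the evolution of mitochondria and have no bacterial counterpart.

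PC3 is a cell line from a human prostate adenocarcinoma and MG63 a cell line from a human osteosarcoma. Both are labelled as wild type. Cells of each line were transfected with siRNA at 10 nM using Lipofectamine RNAiMAX and harvested at 72 h for sequencing of polyadenylated RNA. The groups named siControl received non-targeting siRNA, and those named siLARP4A and siLARP4B received siRNA directed at the respective mRNA. LARP4A, whose gene symbol is LARP4, and LARP4B are related RNA-binding proteins of the La family that associate with mRNA and with poly(A)-binding protein, and LARP4A has been linked in some reports to nuclear mRNAs of mitochondrial proteins. There were 6 groups of 2 libraries, stated to be biological replicates. How many siRNA sequences were used per target is not given in the sources used here.

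The libraries held 16950119 to 24864977 fragments, and the median gene of the group had 632.5 to 1118.5 fragments per library. LARP4 fell to 12.7% of siControl in PC3 and 25.8% in MG63 with siLARP4A, and LARP4B fell to 18.4% and 30.9% with siLARP4B. LARP4 was also higher with siLARP4B in MG63, by 0.43 on the log2 scale. In the siControl libraries PC3 expressed the epithelial keratin KRT8 at 203 and 207 FPKM and the adhesion protein EPCAM at 25.3 and 24.9, whereas the prostate gene KLK3 (0.0292 and 0) was near or at 0. Of the 7 PC3 markers tested, 5 were called higher in PC3 than in MG63 and 2 lower. MG63 expressed the collagen COL1A1 at 744 and 745 FPKM and SPARC at 720 and 747, whereas the bone genes RUNX2 (0.178 and 0.14), ALPL (0.545 and 0.578) and SPP1 (0 and 0) were near or at 0. Of 3 tested markers of other cell types, the macrophage gene CD68 changed in both lines. In PC3 it rose with siLARP4A (15.3 and 16 to 18.6 and 20.6 FPKM) and fell with siLARP4B (to 11.8 and 12), and in MG63 it fell from 30.6 and 27.7 FPKM with siControl to 19.7 and 19.2 with siLARP4A and 14.2 and 14.4 with siLARP4B. The endothelial gene CDH5 stood in MG63 at 3.66 and 3.15, 6.47 and 5.6, and 2.43 and 1.96 FPKM, and at 0 to 0.0397 in PC3, and PECAM1 lay between 0.139 and 0.577 in all libraries. Their part in the results was not tested.

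As transcripts these genes were short. Their median model was 1353 bases long, against 3221 over all genes tested. In GENCODE release 29 their median coding sequence was 573 bases (1272 over all coding genes), their median 3′ UTR was 445 bases (966) and their median number of exons was 5 (8). Their median 5′ UTR was also short, at 81.5 bases (178). Promoter sequences from RefSeq (assembly GRCh38.p14, 250 bases before to 50 after the start site) could be matched for 69 of the 78 genes. The letters AAGATGGC or, on the other strand, GCCATCTT, a core recognised by the transcription factor YY1, stood in 20 of the 69 promoters (29%) and in 607 of 15843 promoters of coding genes (3.83%). Counted on both strands in the same way, the ETS-family core CCGGAAGT stood in 11 (15.9%, against 6.03%), the NRF1 core GCGCATGC in 6 (8.7%, against 4.14%), the SP1 core GGGCGG in 40 (58%, against 57.4%) and TATAAA in 2 (2.9%, against 9.91%). The letters AAGATGGC contain ATG, and the promoters reach 50 bases past the start site, so matches there can be start codons. How much of the YY1 share this makes up was not tested.

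The YY1 core is shown for 9 genes that were called in at least 1 comparison below, since among the motifs searched it is the one whose share differed most from that of other promoters. Each window is read 5′ to 3′ on the strand of the gene, with coordinates on GRCh38.p14, and capitals mark the core. The 20 promoters held 21 matches. Of these 17 were on the strand of the gene and 15 began after the annotated start site, and their first bases lay at positions -222 to 36 relative to it.
MRPL32, chr7:42932144-42932171, plus strand: cccgcgctccGCCATCTTtacccgaaga
MRPL36, chr5:1799855-1799882, minus strand: cccccccgccGCCATCTTccttcctggc
MRPL42, chr12:93467512-93467539, plus strand: ggattgaaacAAGATGGCgggttcgtgg
MRPL50, chr9:101398578-101398605, minus strand: gatctcatcgAAGATGGCggcgcgatct
MRPL51, chr12:6493224-6493251, minus strand: ggtaaggcccAAGATGGCtgtcttcgcc
MRPS10, chr6:42217835-42217862, minus strand: cgggaccggcAAGATGGCggcgcggaca
MRPS18A, chr6:43687765-43687792, minus strand: taggtttttgAAGATGGCggccctcaag
MRPS27, chr5:72320207-72320234, minus strand: ggtacgctccAAGATGGCtgcctccata
MRPS30, chr5:44808950-44808977, plus strand: atcgcgggcaAAGATGGCggcggccagg

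Levels are given as FPKM, the fragments of a gene scaled to its transcript length and to the depth of the library. In siControl cells the highest genes in PC3 were MRPS24 (180 and 178 FPKM), MRPL41 (183 and 171) and MRPS34 (139 and 141). The first and the second overlapped between libraries, and both lay above MRPS34. The MRPS24 model shares 85.7% of its exonic bases with other annotated genes, most of all the readthrough gene URGCP-MRPS24. The level of MRPS24 cannot be told apart from these transcripts. In MG63 the order was different, with MRPL14 (216 and 224 FPKM), MRPS6 (158 and 148) and MRPL51 (123 and 137) at the top, none of which overlapped the next. By FPKM the lowest genes counted at a single locus were MRPS14 in PC3 (3.83 and 3.85) and MRPL42 in MG63 (3.93 and 3.76). The MRPL42 model is 15580 bases long, the longest of the group, whose median is 1353. By fragments MRPL42 was not low, with 1109 and 1119 in these MG63 libraries against medians of 731 and 779.5. Its FPKM depends on this long model. MRPL23, MRPL45, MRPS18B and MRPS36 also have copies on alternative or unplaced sequences of the assembly, where fragments can be placed instead. For the first 3 of these the values are not levels of the genes, while MRPS36 had 75 to 235 fragments per library at its place and 0 to 2 on the other sequence. MRPL23, for example, had 112 to 193 fragments per PC3 library at its place on chromosome 11 and 0 to 1 per MG63 library, while its copy held 314 to 748 in MG63.

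The siControl libraries of the lines differed at most genes, including most of the mitochondrial ribosome. With edgeR's quasi-likelihood test, 38 members were higher in PC3 and 23 lower at a Benjamini-Hochberg adjusted p under 0.05, where 82.0% of all genes were called, 41.3% higher and 40.7% lower. Over the 74 members counted at a single locus, 37 were higher and 22 lower. MRPS16, counterpart of a bacterial small subunit protein, stood at 133 and 133 FPKM in PC3 and at 30.3 and 29.3 in MG63 (log2 difference 1.97, SE 0.05, adjusted p = 3.1e-20 by edgeR). MRPS26, a small subunit protein without bacterial counterpart, stood at 98.2 and 93.7 FPKM in PC3 and at 22.4 and 22.6 in MG63. MRPL14 went the other way, at 66.2 and 57.4 FPKM in PC3 and 216 and 224 in MG63, as did MRPS14, at 3.83 and 3.85 against 13.5 and 14.1. In none of these 4 genes did the lines overlap.

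Summed over the 78 genes, the level was lower in the siLARP4A than in the siControl libraries of both lines, while the siLARP4B libraries were slightly lower in PC3 and higher in MG63. In PC3 the sum was 3699 and 3659 FPKM with siControl, 3041 and 3233 with siLARP4A and 3623 and 3498 with siLARP4B. The MG63 sums were 3064 and 3081 FPKM with siControl, 2707 and 2775 with siLARP4A and 3492 and 3390 with siLARP4B. By these sums no siRNA group overlapped its siControl group. For siLARP4B in PC3 this did not hold for the small subunit sum (1305 and 1277 against 1281 and 1282 FPKM) or for the share of all fragments (0.5225% and 0.5132% against 0.5211% and 0.5181%). The group means with siLARP4A were 85.28% of siControl in PC3 and 89.22% in MG63, and with siLARP4B they were 96.79% and 112%. In bulk RNA such a share can come from fewer transcripts per cell or from a different mix of cells, which cannot be told apart.

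**Figure D1:**
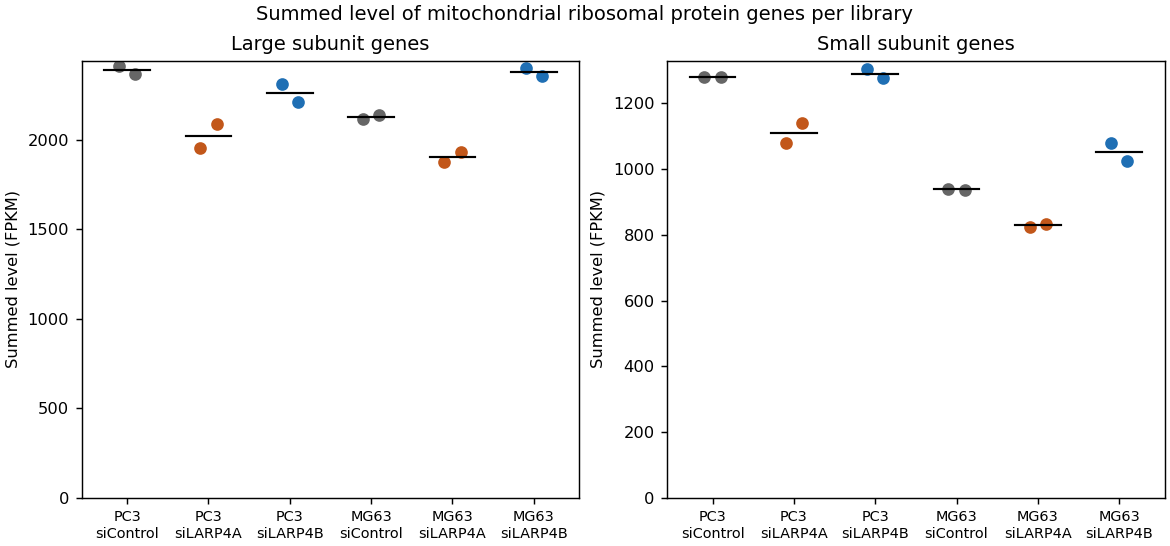
Summed level in FPKM of the large subunit genes (left) and small subunit genes (right) in each of the 12 libraries, by cell line and siRNA; points are libraries and lines are means of 2. In both panels the siLARP4A libraries of each line lie below siControl, and the siLARP4B libraries of MG63 lie above it.

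Genes are called when the adjusted p of edgeR's quasi-likelihood test, with Benjamini-Hochberg adjustment over the 15689 genes, was under 0.05. Fold changes are log2 values of the siRNA group relative to siControl. In PC3, siLARP4A lowered 35 of the 77 tested genes (45.5%) and raised 3, where 36.4% of all genes were called, 16.9% lower and 19.5% higher. The median fold change was -0.18, against 0.03 for all genes, and the called decreases ran from -1.02 to -0.18, with 4 of 35 at -0.5 or below. Both subunits took part. Of the large subunit 25 of 51 genes fell and 3 rose, and of the small subunit 10 of 25 fell and none rose. Large subunit genes with a bacterial homolog fell in 18 of 31 cases (median -0.23), and those without one in 7 of 20 (median -0.14); the difference between these classes was not tested.

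MRPL11 (chromosome 11, 66435075 to 66438848, minus strand on hg38) changed most in PC3 with siLARP4A. It encodes the counterpart of the bacterial L11 protein at the base of the ribosomal stalk, where translation factors bind. Its level was 34.0 and 31.7 FPKM with siControl and 15.7 and 16.5 with siLARP4A, so the groups lay far apart (log2 fold change -1.02, SE 0.07, edgeR adjusted p = 1.2e-10). MRPL36 (chromosome 5, 1798385 to 1799837), the counterpart of a small zinc-binding bacterial protein, went from 63.7 and 56.9 FPKM to 32.4 and 41.5. The siLARP4A libraries of MRPL36 differed from each other by more than those of MRPL11, yet both lay below siControl (-0.70, SE 0.10, edgeR adjusted p = 1.7e-05). MRPL33 (chromosome 2, 27771719 to 27779733) went from 56.8 and 56.5 FPKM to 35.4 and 36.4 (-0.64, SE 0.09). The exons of these 3 genes overlap no other annotated gene.

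MRPL34, MRPS21 and MRPS27 followed. MRPL34, the homolog of bacterial L34, went from 120 and 116 FPKM to 79.7 and 88.4 (-0.47). Of its exonic bases 25.8% are shared with other annotated genes, most of all ABHD8 on the other strand. MRPS27, a pentatricopeptide repeat protein of the small subunit, went from 21.5 and 22.0 to 16.3 and 15.1 FPKM (-0.45), and MRPS21 from 54.9 and 55.1 to 38.8 and 40.5 (-0.45). MRPL23 was also called (-0.52), but its siControl libraries stood at 16.0 and 9.38 FPKM against 8.26 and 9.18, and its fragments are divided between 2 copies. The genes called higher were MRPL35 (8.15 and 8.21 FPKM to 10.1 and 9.87, log2 fold change 0.31), MRPL44 (15.8 and 16.6 to 19.5 and 17.2, 0.20) and MRPL42 (5.49 and 5.94 to 6.31 and 6.17, 0.15). MRPL44 lost its call in 21 of 25 alternative analyses and MRPL42 in 21 of 24, and the count called higher was 1 without PC3 siControl replicate 1, without either PC3 siLARP4B library and without any 1 of the MG63 libraries. Without PC3 siControl replicate 1, 23 genes were called lower in place of 35. Across all genes fold changes with siLARP4A ran weakly with transcript length (Spearman rho 0.148, over 15689 genes, which are not independent), and with a length and GC correction 27 genes were called lower and the median was -0.095.

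In MG63, siLARP4A lowered 23 of the 77 genes (29.9%) and raised 0, where 26.8% of all genes were called, 13.5% lower and 13.3% higher. At an unadjusted p under 0.05 in the same edgeR test 2 genes were higher, DESeq2 called 0 higher and limma 1, and 2 were higher in edgeR without PC3 siLARP4A replicate 1 or 2. The median was -0.13, against 0.00 for all genes. Of the large subunit 16 of 51 genes fell, and of the small subunit 7 of 25.

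MRPL11 again changed most, from 27.0 and 27.3 FPKM with siControl to 16.2 and 16.4 with siLARP4A (-0.74, SE 0.07, edgeR adjusted p = 5.2e-08). MRPS6, the homolog of bacterial S6, went from 158 and 148 FPKM to 109 and 103 (-0.53, SE 0.06). However, 31.9% of its exonic bases are shared with other annotated genes, most of all AP000317.2 on the same strand. MRPL36 went from 65.8 and 63.9 to 46.0 and 45.5 FPKM (-0.50). None of these groups overlapped, a condition for naming genes here that all 23 genes called lower met. MRPL57, a large subunit protein without bacterial counterpart, went from 12.9 and 12.3 to 9.03 and 9.40 FPKM (-0.45), MRPL33 from 44.4 and 49.2 to 36.1 and 34.6 (-0.41) and MRPL51 from 123 and 137 to 98.3 and 100 (-0.39). Of MRPL51 46.9% of the exonic bases are shared with other annotated genes, most of all NCAPD2 on the other strand. The count called lower was 15 without MG63 siControl replicate 1, 13 without replicate 2, and 15 without MG63 siLARP4A replicate 1. With the length and GC correction it was 17 and the median was -0.063.

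The siLARP4A comparisons of the 2 lines share no library. They called 19 genes lower in common, which is 54.3% of the 35 in PC3 and 82.6% of the 23 in MG63. No gene was called in opposite directions, but with 3 genes called higher in PC3 and 0 in MG63 there was little room for it. Of all genes 16.9% were called lower in PC3 and 13.5% in MG63. The share called in both lines is not given for all genes, so this overlap has no background to be read against. The 19 were MRPL9, MRPL11, MRPL18, MRPL19, MRPL30, MRPL33, MRPL34, MRPL36, MRPL47, MRPL50, MRPL51, MRPL57, MRPL58, MRPS6, MRPS9, MRPS21, MRPS27, MRPS34 and MRPS35. MRPL50 stood at 10.2 and 10.3 FPKM with siControl and 7.94 and 7.68 with siLARP4A in PC3, and at 7.80 and 7.58 against 6.11 and 5.88 in MG63. MRPL18 stood at 63.5 and 61.9 against 45.4 and 50.3 FPKM in PC3, and at 67.4 and 59.4 against 48.8 and 51.1 in MG63. MRPL58, a peptidyl-tRNA hydrolase built into the large subunit, had log2 fold changes of -0.24 and -0.23, and MRPL47, -0.19 and -0.18. These 2 were near the threshold, MRPL47 losing its MG63 call in 16 alternative analyses and its PC3 call in 9. Over the 74 genes counted at a single locus 65 fold changes were negative in PC3, 65 in MG63 and 60 in both. With so many negative in each line, most of the 60 would be shared in any case. The fold changes of the lines ran together (Pearson 0.67, Spearman 0.59, as a description across genes). Over all 77 tested members the values were 0.51 and 0.49, and over the 15689 genes 0.20 and 0.39, with 4818 genes lower in both lines.

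**Figure D2:**
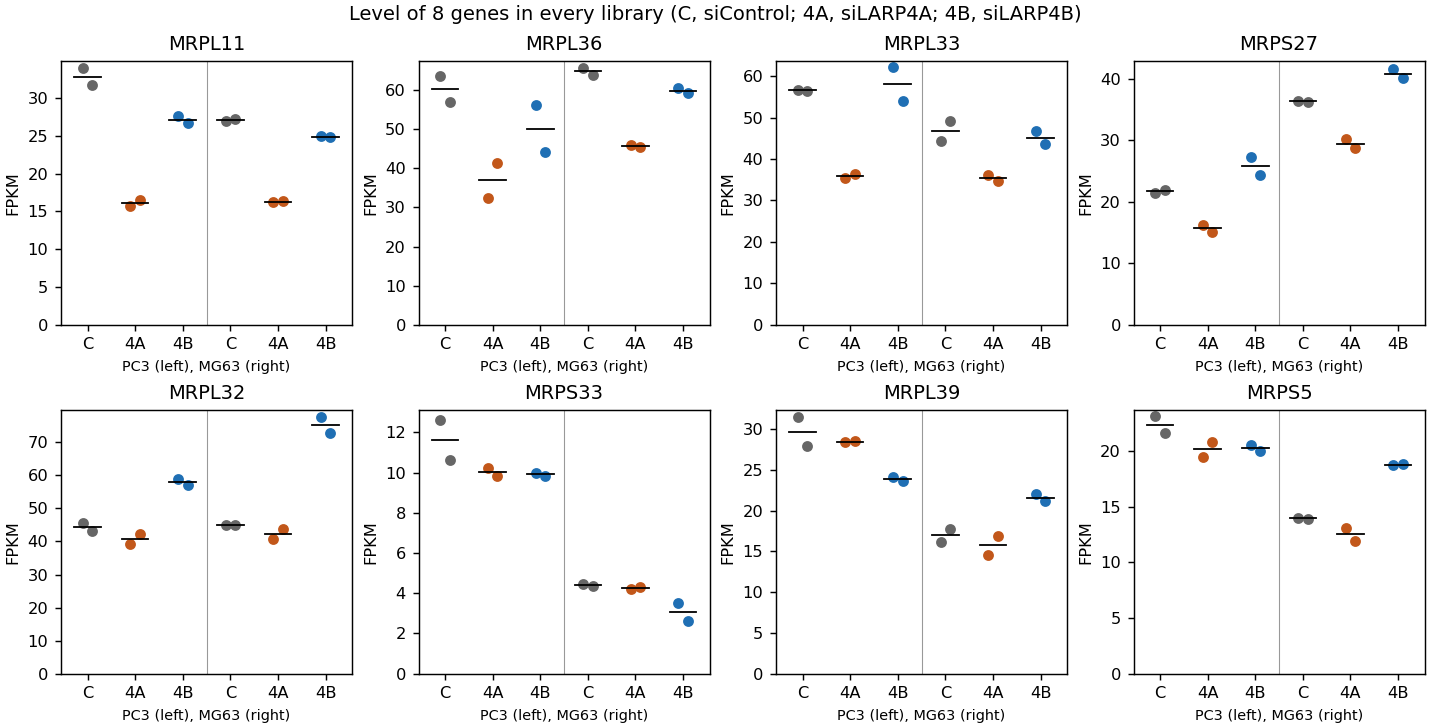
Level in FPKM of 8 genes in every library; points are libraries (grey siControl, orange siLARP4A, blue siLARP4B) and lines are means of 2, with PC3 to the left of the vertical line and MG63 to the right. MRPL11, MRPL36, MRPL33 and MRPS27 are lowest with siLARP4A in both lines, whereas MRPL32 is highest with siLARP4B in both.

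A difference between the lines in the response to siLARP4A was called for 4 genes by the interaction term of the edgeR model. Of the 77 tested members 3.9% had a higher and 1.3% a lower change in PC3. Both shares were below those of all genes, 5.74% and 5.46%. MRPL35 rose in PC3 and had 9.89 and 10.1 FPKM with siControl and 9.28 and 9.45 with siLARP4A in MG63, a difference between the lines of 0.41 (adjusted p = 0.0087 by edgeR). MRPS16 went from 133 and 133 to 99.5 and 98.0 FPKM in PC3 and from 30.3 and 29.3 to 27.2 and 27.2 in MG63 (-0.28). MRPS6 fell further in MG63 (0.29), and MRPL15 had fold changes of 0.14 in PC3 and -0.14 in MG63, neither called (0.28). The last 2 calls were lost in 17 and 16 of 24 alternative analyses. When single libraries of either line were left out, the count higher was 0 to 3 and the count lower 1 to 7, the latter reached without PC3 siLARP4A replicate 2. For MRPL11 the interaction was -0.28 and was not called.

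With siLARP4B the lines parted. Within a line these comparisons use the same siControl libraries as those of siLARP4A. In PC3 it lowered 24 of the 77 genes (31.2%) and raised 5 (6.49%), where 45.6% of all genes were called, 20.8% lower and 24.8% higher. The median was -0.08, against 0.04 for all genes. Of the large subunit 19 of 51 genes fell and 2 rose, and of the small subunit 5 of 25 fell and 3 rose. In MG63 siLARP4B raised 37 genes (48.1%) and lowered 3, where 34.9% of all genes were called, 18% higher and 16.9% lower. The median there was 0.18, against 0.00. Of the large subunit 24 of 51 genes rose and 1 fell, and of the small subunit 13 of 25 rose and 2 fell.

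In PC3 the largest decreases with siLARP4B were those of MRPL53 and MRPL15. MRPL53 went from 46.8 and 50.5 FPKM to 34.2 and 31.2 (-0.58, SE 0.09, edgeR adjusted p = 2.1e-05). However, 100% of its exonic bases lie within annotated exons of other genes, most of all CCDC142 on the same strand. MRPL15, a large subunit protein with a bacterial homolog and no exonic overlap, went from 18.4 and 19.1 to 13.1 and 12.7 FPKM (-0.54, SE 0.07, edgeR adjusted p = 1.8e-06). MRPS9 went from 25.3 and 24.1 to 18 and 18.5 (-0.44), MRPL49 from 37.0 and 41.0 to 27.4 and 31.0 (-0.42), and MRPS10 from 35.8 and 36.2 to 29.9 and 26.3 (-0.36). MRPL9 completed the 6 largest at -0.34. Of the exonic bases of MRPL9 46.8% are shared with other annotated genes, most of all AL589765.7 on the other strand. All 6 had siLARP4B libraries below both siControl libraries, a condition for naming genes here that all 24 genes called lower met. The 5 genes called higher were MRPS25, MRPL32, MRPS21, MRPS27 and MRPL41. MRPS25, a small subunit protein without bacterial counterpart, went from 15.5 and 16.1 to 23.3 and 23.5 FPKM (0.56, SE 0.06, edgeR adjusted p = 2.2e-07). Of its exonic bases 18.4% are shared with other annotated genes, most of all NR2C2 on the other strand. MRPL32 went from 45.6 and 43.2 to 58.9 and 57.2 (0.38). MRPS21 and MRPS27 each rose by 0.25, and MRPL41 by 0.24. Without PC3 siControl replicate 1 the count lower was 14. The count higher was 10 without PC3 siLARP4A replicate 1 or 2, 3 without PC3 siLARP4B replicate 1, and 8 with the length and GC correction.

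In MG63 the largest increase with siLARP4B was that of MRPL32 (chromosome 7, 42932376 to 42937854, plus strand), a homolog of bacterial L32 that is processed by the m-AAA protease before it enters the ribosome. It went from 45.0 and 45.0 FPKM to 77.8 and 72.8 (0.76, SE 0.07, edgeR adjusted p = 9.5e-09). MRPL28 went from 61.4 and 60.4 to 89.6 and 83.6 FPKM (0.53), and MRPL17 from 20.1 and 21.8 to 27.5 and 31.5 (0.51). In the small subunit MRPS2 went from 32.9 and 33.0 to 45.0 and 45.1 FPKM (0.47) and MRPS5 from 14 and 13.9 to 18.7 and 18.8 (0.45). MRPL34 was the sixth, at 0.40. All 6 had siLARP4B libraries above both siControl libraries, a condition for naming genes here that all 37 genes called higher met. The 3 genes called lower were MRPS33 (4.46 and 4.35 to 3.53 and 2.63 FPKM, -0.50), MRPL57 (12.9 and 12.3 to 11 and 10.2, -0.23) and MRPS9 (23.6 and 24.0 to 20.4 and 20.4, -0.20). MRPL57 lay at the threshold and lost its call in 16 alternative analyses. Without MG63 siControl replicate 2 the count higher was 23. The count lower was 1 without MG63 siControl replicate 1 or 2 and 0 without MG63 siLARP4B replicate 2.

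**Figure D3:**
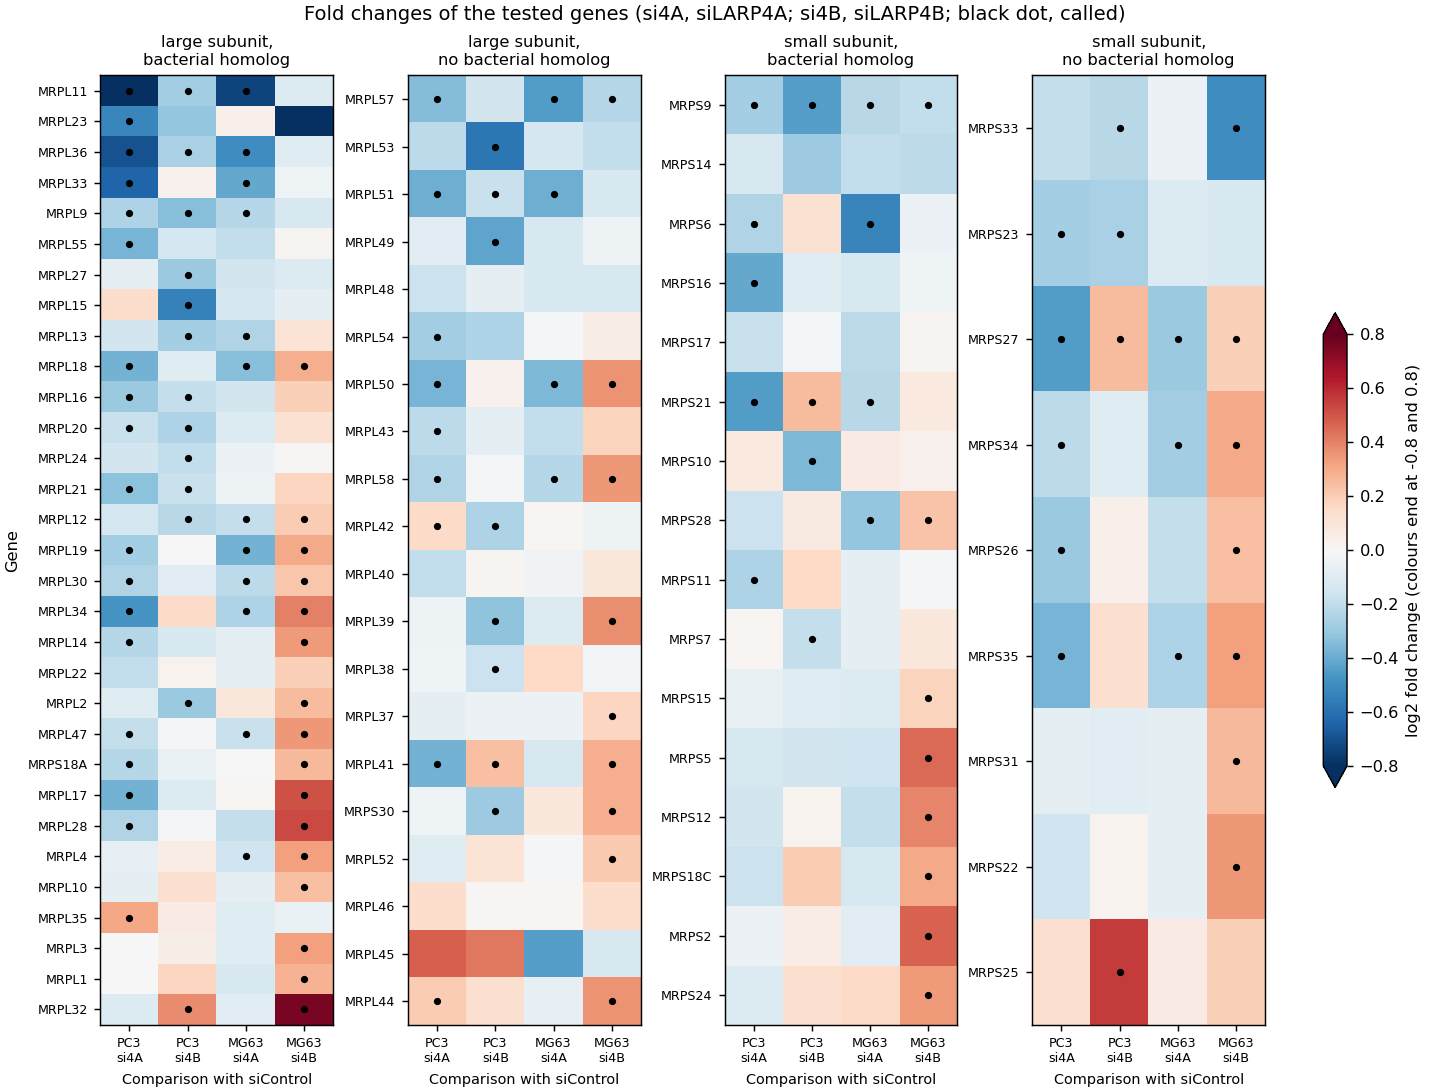
Log2 fold change of each tested gene placed in a subunit (rows, 4 panels by subunit and bacterial homology) in the 4 comparisons with siControl (columns); blue is lower, red higher, and a black dot marks a gene called at an adjusted p under 0.05. The siLARP4A columns are blue for most genes, and the siLARP4B column of MG63 is red for most; MRPL23 and MRPL45 are counted at several loci and MRPS36 is left out.

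Some genes were called with siLARP4B in both lines, although calls alone do not show that the other genes differed. The share called in both lines is not given for all genes, so these counts have no background to be read against. MRPL32, MRPL41 and MRPS27 were called higher in both, 60% of the 5 in PC3 and 8.11% of the 37 in MG63, and MRPS9 and MRPS33 lower in both, 8.33% of 24 and 66.7% of 3. MRPL2, MRPL12, MRPL39 and MRPS30 fell in PC3 and rose in MG63. MRPL39, a large subunit protein without bacterial counterpart, went from 31.5 and 27.9 FPKM to 24.1 and 23.6 in PC3 and from 16.2 and 17.8 to 22.0 and 21.2 in MG63. MRPS30, which despite its symbol sits in the large subunit, went from 25.6 and 23.8 to 20.2 and 20.3 FPKM in PC3 and from 21.8 and 20.4 to 25.5 and 25.5 in MG63. MRPL12, the stalk protein that also binds mitochondrial RNA polymerase, went from 130 and 137 to 117 and 113 in PC3 and from 74.4 and 72.7 to 82.5 and 84.2 in MG63, with 68.2% of its exonic bases shared with other annotated genes. In each of these genes and lines the groups did not overlap.

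The difference in response was tested directly. The change with siLARP4B was lower in PC3 than in MG63 for 32 of 77 genes (41.6%) and higher for 1, MRPS25, where 14.4% of all genes were called lower and 12.4% higher. The MRPS25 call was lost without MG63 siControl replicate 1 or 2. The largest differences were those of MRPL39 (-0.68, SE 0.12, edgeR adjusted p = 0.00028), MRPL17 (-0.62, SE 0.14, adjusted p = 0.0022) and MRPS5 (-0.59, SE 0.09, adjusted p = 4.3e-05). MRPL17 stood at 26.7 and 29.8 FPKM with siControl and 26.3 and 26.4 with siLARP4B in PC3, and MRPS5 at 23.1 and 21.6 against 20.5 and 20. Even so, the order of the genes ran in part together. Over the 74 genes at a single locus the fold changes of the lines had a Pearson correlation of 0.52 and a Spearman correlation of 0.50, across genes and as a description. The values were 0.43 and 0.43 over all 77 tested members, where 18 fold changes were negative in both lines, 25 positive in both and 34 opposite, and 0.18 and 0.28 over the 15689 genes.

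**Figure D4:**
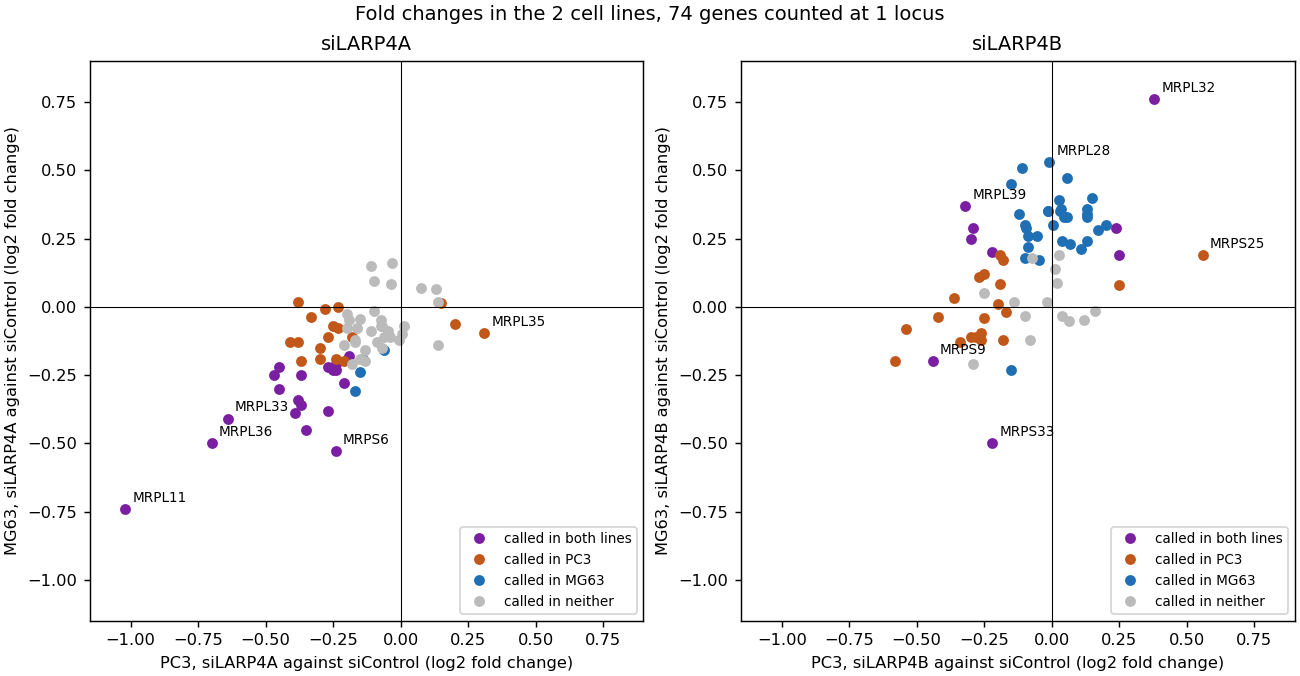
Log2 fold changes against siControl in PC3 (horizontal) and MG63 (vertical) for the 74 genes counted at 1 locus, with siLARP4A on the left and siLARP4B on the right; colours show in which line a gene was called. With siLARP4A, 60 of the 74 genes lie where both values are below 0, with 65 below 0 in each line taken alone. With siLARP4B most points called in MG63 lie above 0 while most called in PC3 lie left of 0.

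Compared with each other, the siRNAs against the paralogs gave different levels of these genes. In MG63, 50 of 77 genes (64.9%) were lower with siLARP4A than with siLARP4B and 2 were higher, where 43.8% of all genes were called, 22.2% lower and 21.5% higher. The genes that were higher were MRPS33 (0.45) and MRPL38 (0.18). Of the exonic bases of MRPL38 67.8% are shared with other annotated genes, most of all AC087289.3 on the same strand. MRPL32 stood at 40.7 and 43.8 FPKM with siLARP4A and 77.8 and 72.8 with siLARP4B (-0.85, SE 0.07, edgeR adjusted p = 1.1e-09). MRPL50 stood at 6.11 and 5.88 against 9.74 and 9.69 FPKM (-0.72), and MRPL28 at 51.4 and 55.5 against 89.6 and 83.6 (-0.71). In none of these did the groups overlap. In PC3, 32 genes (41.6%) were lower with siLARP4A than with siLARP4B and 10 (13%) higher, where 54.1% of all genes were called, 27.8% lower and 26.3% higher. The extremes were MRPL11 at 15.7 and 16.5 against 27.6 and 26.7 FPKM (-0.74) and MRPL15 at 20.1 and 20.7 against 13.1 and 12.7 (0.68). The PC3 count lower was 18 without PC3 siLARP4B replicate 1. With the length and GC correction 20 genes were higher and 23 lower in PC3, with a median of -0.0045 in place of -0.15.

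The S18 paralogs, of which vertebrate mitochondria have 3, could be followed in part. MRPS18A, which sits in the large subunit, fell by 0.23 with siLARP4A in PC3 and rose by 0.26 with siLARP4B in MG63. Of its exonic bases 56.9% are shared with other annotated genes, most of all RSPH9 on the other strand. MRPS18C of the small subunit rose by 0.30 with siLARP4B in MG63 (11 and 12.4 to 14.1 and 14.5 FPKM). Of its exonic bases 78.9% are shared with other annotated genes, most of all ABRAXAS1 on the other strand. MRPS18B was not tested. MRPS36, now known as a component of the 2-oxoglutarate dehydrogenase complex and not of the ribosome, was not called in any comparison (3.18 and 8.43 FPKM with siControl in PC3).

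The counts were also taken over genes whose fragments are least shared with other genes. In the 44 genes at a single locus with at most 5% of exonic bases shared with another gene, siLARP4A lowered 21 (47.7%) and raised 2 in PC3, and lowered 13 (29.5%) and raised 0 in MG63, where 16.9% and 13.5% of all genes were called lower. With siLARP4B 14 (31.8%) were lower and 4 higher in PC3, and 22 (50%) were higher and 2 lower in MG63, where 20.8% of all genes were called lower in PC3 and 18% higher in MG63. Their medians were -0.20 and -0.12 with siLARP4A and -0.10 and 0.18 with siLARP4B, in PC3 and MG63. Of the 20 genes whose promoters hold the YY1 core 19 were tested. Among these siLARP4A lowered 7 and raised 1 in PC3 and lowered 5 and raised 0 in MG63, beside 45.5% and 29.9% lower over the 77 members and 16.9% and 13.5% over all genes. With siLARP4B 8 were lower and 2 higher in PC3 and 9 higher and 0 lower in MG63, beside 31.2% lower and 48.1% higher over the members and 20.8% and 18% over all genes. YY1 itself fell with siLARP4B, from 28.9 and 29.7 FPKM to 20.3 and 20 in PC3 and from 18.4 and 19.1 to 15.7 and 16.4 in MG63. Its part in the changes was not tested.

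Other gene groups were read from the same fits. The cytosolic ribosomal protein genes, of which 75 were tested, fell in 55 cases (73.3%) and rose in 1 with siLARP4A in PC3. In MG63 5 fell (6.67%) and 0 rose. Of all genes 16.9% were called lower with siLARP4A in PC3 and 13.5% in MG63. With siLARP4B 35 rose (46.7%) and 2 fell in PC3, and 18 rose (24%) and 2 fell in MG63. Of all genes 24.8% were called higher with siLARP4B in PC3 and 18% in MG63. Nuclear genes of respiratory chain subunits (76 tested) had medians of -0.19 in PC3 and -0.12 in MG63 with siLARP4A, and of 0.01 and 0.14 with siLARP4B. With siLARP4A 42 (55.3%) were lower in PC3 and 21 (27.6%) in MG63. With siLARP4B 39 of these respiratory chain genes (51.3%) rose and 4 fell in MG63. In PC3 14 rose (18.4%) and 13 fell (17.1%), where 24.8% of all genes were called higher and 20.8% lower. The differences between these groups and the mitochondrial ribosomal protein genes were not tested.

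**Figure D5:**
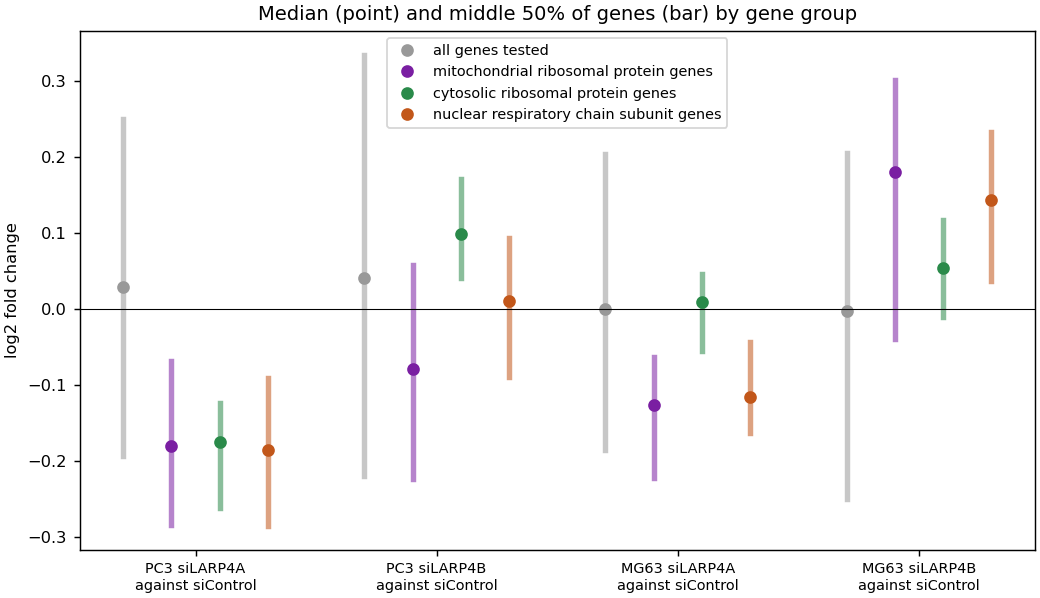
Median log2 fold change (points) and the middle 50% of genes (bars) in the 4 comparisons with siControl, for all 15689 genes tested, the 77 mitochondrial ribosomal protein genes, 75 cytosolic ribosomal protein genes and 76 nuclear respiratory chain subunit genes. The cytosolic genes have a median near 0 in MG63 with siLARP4A (0.01), where the mitochondrial ribosomal protein genes are at -0.13.

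The mitochondrial ribosome works with translation factors, assembly factors and tRNA synthetases that are also encoded in the nucleus. Counts in these lists are to be read against the shares of all genes called, which with siLARP4A were 16.9% lower and 19.5% higher in PC3 and 13.5% and 13.3% in MG63, and with siLARP4B 20.8% and 24.8% in PC3 and 16.9% and 18% in MG63. Among 16 translation factors tested, siLARP4A lowered 5 (31.2%) and raised 2 (12.5%) in PC3 and lowered 2 and raised 2 in MG63 (12.5% each, near the share of all genes). The ribosome recycling factor MRRF fell in both lines (-0.38 and -0.44) and the elongation factor GFM1 rose in both (0.25 and 0.21), while the initiation factor MTIF3 fell in PC3 (-0.46). siLARP4B raised 4 and lowered 1 in PC3 and raised 8 and lowered 1 in MG63. The gene lowered in both lines was the initiation factor MTIF2 (-0.29 and -0.25), and the release factor MTRF1L rose most in MG63 (0.42), where the elongation factor TUFM rose by 0.37.

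Of 23 genes for assembly of the mitochondrial ribosome and modification of its RNA, siLARP4A lowered 6 and raised 1 in PC3 and lowered 6 and raised 0 in MG63. The rRNA methyltransferase NSUN4 had the largest decrease in PC3 (-0.52), and the large subunit assembly factor MALSU1 in MG63 (-0.52). siLARP4B raised 7 and lowered 3 in PC3 and raised 8 and lowered 4 in MG63. MPV17L2, an assembly factor of the large subunit, went from 11.4 and 13.4 FPKM to 25.3 and 24.8 in MG63 (1.03, SE 0.08, edgeR adjusted p = 1.5e-09), above every ribosomal protein gene of the group in fold change. NOA1, a GTPase needed for the small subunit, rose by 0.60 there. Of 16 mitochondrial aminoacyl-tRNA synthetases, siLARP4A raised 4 and lowered 2 in PC3 and lowered 2 in MG63, and siLARP4B raised 5 and lowered 3 in PC3 and raised 4 and lowered 4 in MG63. The synthetase shares called with siLARP4A in PC3 (25% higher, 12.5% lower) and with siLARP4B in PC3 (31.2% and 18.8%) were near those of all genes. The methionyl-tRNA synthetase MARS2 rose most with siLARP4B, by 0.38 in PC3 and 0.80 in MG63. Of 13 genes of mitochondrial transcription and its regulation, siLARP4A lowered only the transcription factor TFB2M in PC3 (-0.63) and only the RNA polymerase POLRMT in MG63 (-0.23), and raised PPARGC1B in PC3 (0.25). siLARP4B lowered 4 and raised 2 in PC3, and raised 4 and lowered 1, YY1, in MG63, where the coactivator PPARGC1B rose most (0.92). The level of PPARGC1B in MG63 was low, at 0.455 and 0.411 FPKM with siControl and 0.888 and 0.727 with siLARP4B.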

How the data were processed

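Poly(A) RNA of 12 libraries was sequenced. Per the file headers, the deposited tables give for each transcript model the authors' fragment counts, FPKM and a depth-scaled signal (FPM). PC3 siControl replicate 2 also has a table with duplicate fragments removed. The submitters' processing notes name hg38, HISAT2, featureCounts, edgeR and FastQC, with no versions, and strand handling is not given in the sources used here. The counts without duplicate removal were used as deposited, with 1 model per gene; other symbols than the members at several loci were left out of the fit, and the deposited FPKM values describe levels. The FPM signal of the authors gave only the fragments behind each library.

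All 12 libraries were fitted together in edgeR 4.0.16 (R 4.3.3; filterByExpr, TMM factors, quasi-likelihood test), with 1 coefficient for each of 6 groups and 9 comparisons. P-values were adjusted by the Benjamini-Hochberg method over 15689 genes. The code of the fit was run on simulated counts with the same dispersion for every gene and few changed genes. Since the data differ in both, that run does not give the error rates here. The precision of low genes is limited by the depth of 16950119 to 24864977 fragments. The biological coefficient of variation was 4.22%. With 2 libraries per group the spread is shared across groups and genes. The members and the lists of other genes were chosen with earlier results of these data known. Genes named in the text were the 6 highest and 6 lowest called in each comparison with siControl, the 3 highest and 3 lowest between siRNAs and between lines, genes called in both lines in the same or opposite directions, the S18 paralogs, the 3 highest and 3 lowest levels per line, and the extremes of each list of other genes. For the 6 highest and 6 lowest, both siRNA libraries also had to lie outside the range of the 2 siControl libraries. Other genes were named after their values were seen. Some genes under this rule are not reported here.

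Alternatives were DESeq2 1.42.0, limma 3.58.1 on log2(FPKM + 0.1) and log2(FPKM + 1), other size factors, other filters, the deduplicated table of that library, 1 line at a time, the longest model, symbols at several loci, a replicate block, an offset for length and GC content, and leaving out each library. Exon overlap and coding features came from GENCODE release 29, and overlap is not given for every gene named. The labels state no block and same-numbered replicates did not deviate together, so the main fit has no block.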

Additional observations from a re-analysis of the deposited data

Results flagged for a closer look

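The response to an siRNA differed between the lines by the interaction term of edgeR's quasi-likelihood model for 8 genes among those named by rule, all with 2 libraries per group. The rule names at most the 3 highest and 3 lowest. Of the 77 tested members, 3 (3.9%) were called higher and 1 (1.3%) lower for siLARP4A. That is less often than all genes, of which 5.74% were called higher and 5.46% lower (11.2% together). For siLARP4B 1 (1.3%) was called higher and 32 (41.6%) lower, where 26.8% of all genes were called. For siLARP4A, the log2 fold change in PC3 minus that in MG63 was 0.41 for MRPL35 (Benjamini-Hochberg adjusted p = 0.0087 by edgeR), 0.29 for MRPS6 (0.036), 0.28 for MRPL15 (0.042) and -0.28 for MRPS16 (0.008). For siLARP4B it was -0.68 for MRPL39 (edgeR adjusted p = 0.00028), -0.62 for MRPL17 (0.0022), -0.59 for MRPS5 (4.3e-05) and 0.37 for MRPS25 (0.0083). MRPL15 and MRPS6 were near the threshold and lost the call in 16 and 17 of 24 alternatives.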

How the results depend on the processing

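Of 96 results on single genes, 54 kept their call under every alternative run, and none of 2390 values reversed. The deduplicated table exists here for PC3 siControl replicate 2. Counts higher (siLARP4A against siControl unless named) moved as follows. In PC3 the count was 1 with DESeq2, other size factors, the deduplicated table, either limma fit, no filter, symbols at several loci, the replicate block or the line alone. In MG63 it was 1 with the deduplicated table, limma or no filter, and 2 with the line alone, the length and GC offset or a mean FPKM of at least 5. With siLARP4B it was 8 in PC3 with the offset. Lower with siLARP4B in MG63 were 1 with DESeq2 or no filter and 6 at a mean FPKM of at least 5. Between siRNAs, the count higher was 20 in PC3 with the offset and 1 in MG63 with DESeq2 or no filter. For the line difference in the siLARP4A response, the count higher was 1 with DESeq2, other size factors, the deduplicated table or no filter, and the count lower was 6 with the offset, 5 with other size factors, 3 with the deduplicated table, 4 with limma, 6 at a mean FPKM of at least 5 and 7 with no filter. For the siLARP4B response, the count higher was 2 with limma or at a mean FPKM of at least 5. The causes were not tested.

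Leaving out 1 library gave, higher and lower, 1 to 3 and 23 to 46 (PC3 siLARP4A), 3 to 10 and 14 to 30 (PC3 siLARP4B), 0 to 2 and 13 to 27 (MG63 siLARP4A), 23 to 41 and 0 to 4 (MG63 siLARP4B), 9 to 13 and 18 to 34 (siRNAs in PC3), 1 to 2 and 41 to 51 (siRNAs in MG63), 0 to 3 and 1 to 7 (siLARP4A response), 0 to 2 and 25 to 42 (siLARP4B response), and 35 to 38 and 19 to 23 (siControl between lines). A group left with 1 library is assumed to vary like the others.

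Same-numbered replicates did not deviate together (correlations -0.03 to 0.05). This does not show whether same-numbered libraries were prepared together, which the labels do not state. The replicate block gave 1 in place of 3 higher with siLARP4A in PC3. The block with the offset gave 8 higher with siLARP4B in PC3, 2 higher with siLARP4A in MG63, 21 higher between siRNAs in PC3 and 7 lower for the siLARP4A response. On the limma scales the median of all genes between the siControl lines moved to 0.17 and 0.11 from 0.00. Small changes in genes with few fragments are limited by depth.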
